A study of Mus musculus with 93 samples.

Results

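The genes described here are 9 enzymes that shape fatty acids in the mouse liver, the desaturases Scd1, Scd2, Fads1 and Fads2 and the elongases Elovl1, Elovl2, Elovl3, Elovl5 and Elovl6. They were chosen by name and are 9 of the 53465 genes in the deposited table of counts. All 9 passed the filter on low counts that left 19110 genes for testing. Liver RNA came from 93 male mice of 7 inbred strains, the domesticated C57BL/6J, DBA/2J, A/J and 129S1/SvImJ and the wild-derived WSB/EiJ, CAST/EiJ and PWK/PhJ, with no engineered allele named in the labels. Every mouse was kept at 30°C, its thermoneutral temperature, from 6 wk of age, and from 7 wk it ate either a Western diet (WD-TN, 40% of energy from fat, 17% from protein and 43% from carbohydrate) or a control diet (CD-TN, 10%, 17% and 73%) for 17 wk, until 24 wk of age. C57BL/6J had 8 mice on either diet and WSB/EiJ 6. DBA/2J and PWK/PhJ each had 6 mice on CD-TN with 7 on WD-TN, 129S1/SvImJ had 7 with 6, CAST/EiJ 7 with 8 and A/J 5 with 6. Each strain was studied in 2 cohorts (CAST/EiJ in 3), all of which held both diets. No cohort held every strain, and cohorts 6 and 7 held WSB/EiJ alone. In the comparisons between strains below, WSB/EiJ cannot be told apart from its cohorts, and the other strains only in part. The comparisons asked how WD-TN changed each enzyme in each strain, whether that change differed between strains, and how strains differed on a given diet.

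Desaturases put double bonds into fatty acyl chains and elongases lengthen the chains. Stearoyl-CoA desaturases such as Scd1 and Scd2 make monounsaturated fatty acids, mainly oleate and palmitoleate, which enter triglycerides, cholesteryl esters and phospholipids. Fads2 and Fads1 act in turn, with Elovl5 and Elovl2 between and after them, to convert the essential plant fatty acids linoleate and alpha-linolenate into arachidonate, eicosapentaenoate and docosahexaenoate, while Elovl6 extends palmitate to stearate, the preferred substrate of Scd1. In liver most of these genes are known targets of the transcription factor SREBP-1c, and Scd1 is also a known target of the liver X receptors.

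In levels per length of transcript, Scd1 stood far above the other enzymes. Its mean over a group of mice lay between 651 and 7109 CPM per kb (CPM, the reads of a gene relative to the library total scaled with TMM factors, here divided by the length of all its exons). Scd2 lay between 1.03 and 4.29 CPM per kb. The genes of polyunsaturated fatty acid synthesis lay between, with 121 to 419 CPM per kb for Elovl5, 90.1 to 264 for Fads2, 72.8 to 321 for Elovl2 and 39.8 to 204 for Fads1. The other elongases had 11.5 to 236 CPM per kb (Elovl3), 8.54 to 82.3 (Elovl6) and 14.6 to 21.8 (Elovl1). Reads on Scd1 made up between 0.129% and 4.59% of all reads on genes in a mouse. In bulk liver RNA, fewer cells of a type and less RNA per cell cannot be told apart, and this holds for every level below.

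Scd1 (ENSMUSG00000037071, GRCm38 chr19:44394455-44407879, minus strand) and Scd2 (ENSMUSG00000025203, chr19:44293674-44306864, plus strand) are neighbouring paralogs. Their coding sequences were identical at 90.7% of 1064 aligned bases, with a longest identical run of 147 bases, and Scd1 had a median of 694778 reads per mouse against 436 for Scd2. The 120 coding bases of the pair that were most alike among stretches within 1 exon, in exon 4 of each gene, are shown because a read from them could fit either gene. They span chr19:44401767-44401886 in Scd1 (coding bases 442 to 561) and chr19:44299621-44299740 in Scd2 (coding bases 451 to 570), were read from the GENCODE transcripts of the C57BL/6J reference, and have the single differing base in capitals.
Scd1: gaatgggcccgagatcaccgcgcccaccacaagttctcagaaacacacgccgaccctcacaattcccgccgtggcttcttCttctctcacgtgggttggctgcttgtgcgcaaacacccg
Scd2: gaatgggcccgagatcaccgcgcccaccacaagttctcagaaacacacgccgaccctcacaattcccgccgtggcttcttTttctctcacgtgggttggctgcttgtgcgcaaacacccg
Of the distinct windows of 100 bases in the annotated transcripts of Scd2, 48 of 5461 (0.879%) also occurred in a transcript of another gene, and of those in Scd1, 126 of 4888 (2.58%). With windows of 50 bases the shares were 3.97% and 4.56%. These windows count exact matches alone, and a part of the reads counted for Scd2 could come from Scd1. That part was not tested, and levels of Scd2 carry that uncertainty. Fads1 and Fads2 (chr19:10182888-10196877, plus strand, and chr19:10062765-10101746, minus strand) were identical at 69.4% of 1312 aligned coding bases, with a longest identical run of 17. Their most alike 120 coding bases within 1 exon, in exon 11 of each (chr19:10194489-10194608 in Fads1 and chr19:10064692-10064811 in Fads2), differed at 36 bases, in capitals, and are shown for contrast with the Scd pair.
Fads1: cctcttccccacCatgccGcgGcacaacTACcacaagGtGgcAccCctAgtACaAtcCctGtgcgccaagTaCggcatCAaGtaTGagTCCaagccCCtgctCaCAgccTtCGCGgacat
Fads2: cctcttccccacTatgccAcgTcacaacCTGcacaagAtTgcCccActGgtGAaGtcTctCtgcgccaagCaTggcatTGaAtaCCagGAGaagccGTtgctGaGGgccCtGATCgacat
Among windows of 100 bases, none in Fads1 or Fads2 occurred in another gene. In Elovl6, 57 of 6564 windows of 100 bases (0.868%) occurred in Gm11295, and 3.98% of its windows of 50 bases occurred in another gene. Levels of Elovl6 carry that uncertainty too. Elovl1 shares 53 exon bases with Cdc20, Elovl3 shares 10 with Pitx3, and Elovl6 shares 34 with the antisense gene Gm35986, in each case on the opposite strand. The sources used here do not state whether the counting separated strands.

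WD-TN moved the enzymes in opposite directions. It raised the Scd genes and lowered Fads1, Elovl2 and Elovl6 in 4 or more strains each, lowered Fads2 and Elovl5 in CAST/EiJ and WSB/EiJ, and raised Elovl1 in CAST/EiJ. Of 63 combinations of gene and strain, 10 were upregulated and 20 downregulated at a limma-voom adjusted p below 0.05 (Benjamini-Hochberg over all genes tested in a strain), and all 30 had the same sign in every cohort of their strain. In C57BL/6J 1 gene rose and 3 fell, where 14.3% of all genes tested rose and 11.9% fell. In DBA/2J 1 rose and 1 fell (10.2% and 7.77% of all genes), and in A/J 1 rose and 1 fell (4.39% and 4.64%). In 129S1/SvImJ 2 rose and 3 fell (14.5% and 13.6%), and in PWK/PhJ 1 rose and 3 fell (15.1% and 14.5%). In WSB/EiJ 1 rose and 5 fell (4.97% and 3.97%), and in CAST/EiJ 3 rose and 4 fell (9.77% and 9.73%). The diets did not overlap for 5 of the 9 genes in 129S1/SvImJ (16.4% of all genes), 4 in PWK/PhJ (12.6%), 4 in WSB/EiJ (4.36%), 2 in CAST/EiJ (2.23%), 2 in A/J (8.08%), 0 in C57BL/6J (1.78%) and 1 in DBA/2J (7.28%). The median log2 fold change of the 9 genes ran from -0.61 in WSB/EiJ to 0.02 in DBA/2J, while that of all genes tested ran from -0.01 in PWK/PhJ to 0.02 in CAST/EiJ.

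**Figure D1:**
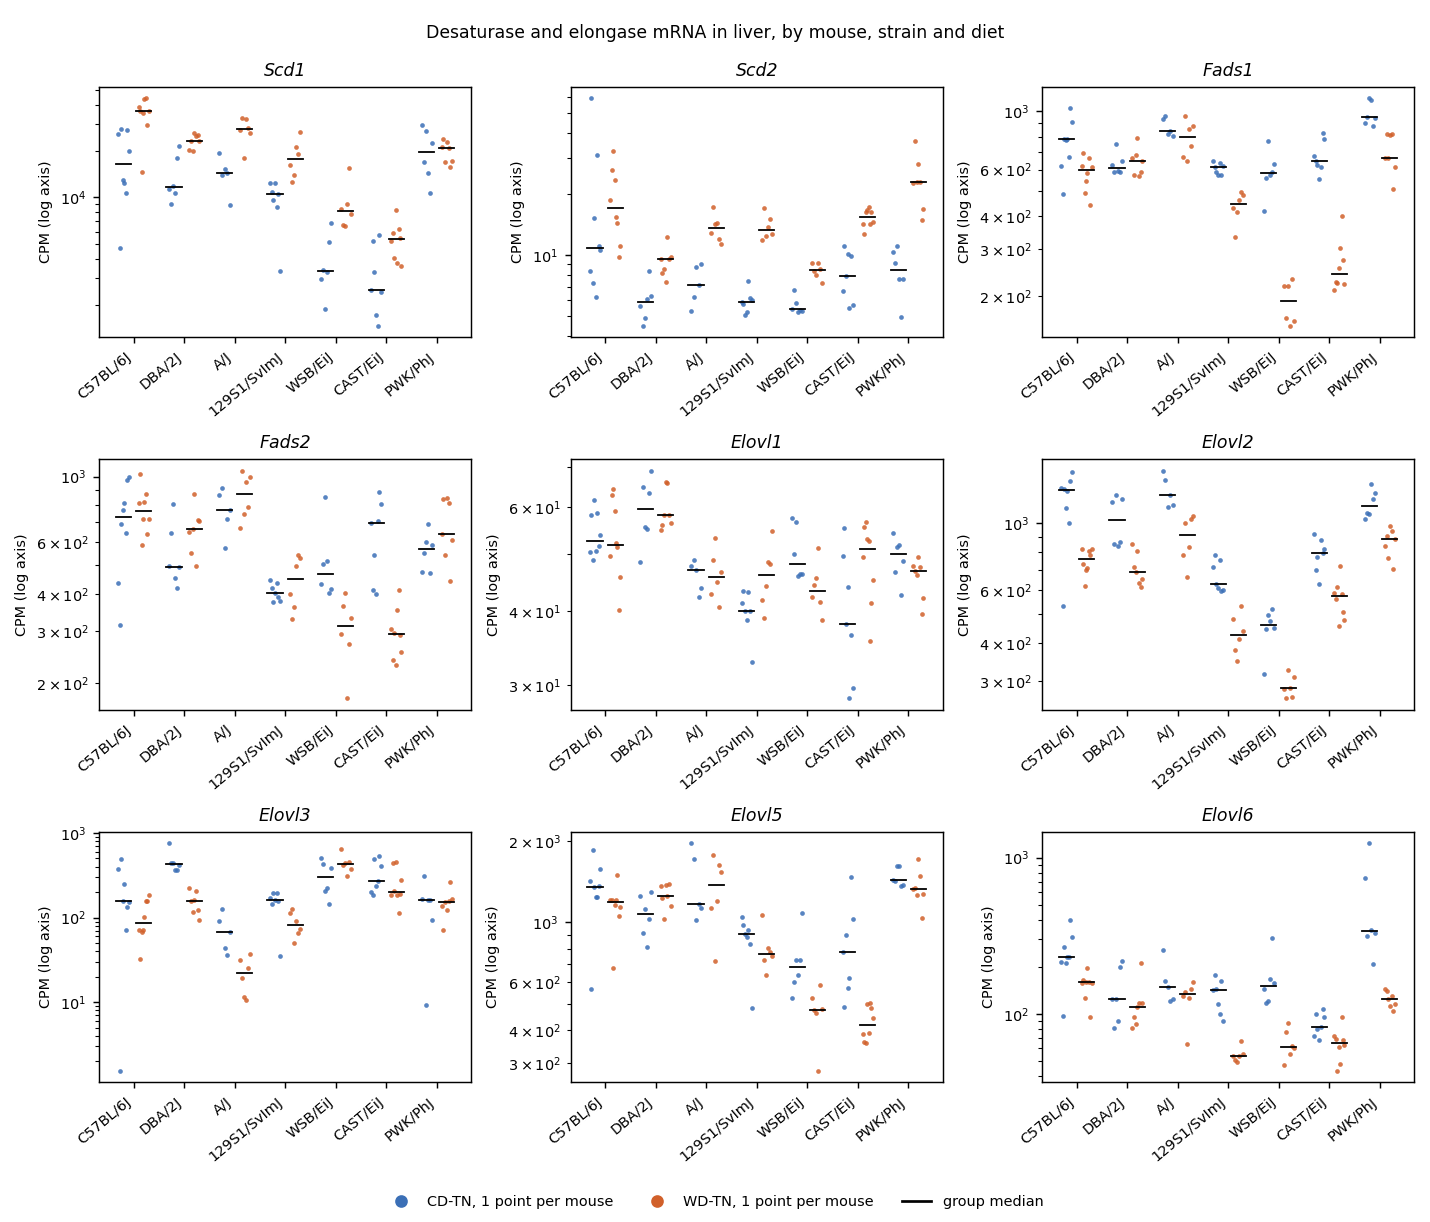
CPM of each of the 9 genes in each of the 93 mice (log axis), by strain, with CD-TN in blue, WD-TN in orange and a bar at each group's median. In Scd1 the WD-TN mice of PWK/PhJ (15721 to 23890 CPM) lie inside the range of their CD-TN mice, the median of Elovl2 is lower on WD-TN in all 7 strains, and C57BL/6J CD replicate 2 stands apart with 59.0 CPM of Scd2 and 1.55 CPM of Elovl3.

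A few mice stood apart in their groups, and they were picked after the data had been seen. C57BL/6J CD replicate 2 had the lowest Scd1 (4711 CPM), Fads1 (487 CPM), Fads2 (313 CPM), Elovl2 (533 CPM), Elovl3 (1.55 CPM), Elovl5 (567 CPM) and Elovl6 (96.7 CPM) and the highest Scd2 (59.0 CPM) of its group of 8. It also had the highest sums of leukocyte and macrophage markers (741 CPM against a group median of 311), of stellate cell and fibroblast markers (977 against 378) and of cholangiocyte markers (437 against 54.5) in its group. The part of these cells in its levels of the enzymes was not tested. In PWK/PhJ CD-TN a mouse (replicate 3) had 1236 CPM of Elovl6 and 9.16 CPM of Elovl3, and in 129S1/SvImJ CD-TN a mouse (replicate 7) had 3335 CPM of Scd1 and 35.3 CPM of Elovl3. Calls on the 9 enzymes that were gained or lost without one of these mice are given both ways, and the correlations between mice were recomputed without the first of them.

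Scd1, the main hepatic stearoyl-CoA desaturase, rose on WD-TN in 5 strains. In C57BL/6J the lowest, the median and highest levels were 4711, 16459 and 27709 CPM on CD-TN and 14551, 36242 and 44080 CPM on WD-TN. The ranges overlapped because of a single low mouse on WD-TN. The log2 fold change was 1.11 (standard error, SE, 0.28, adjusted p = 0.0013). The CD-TN mean was 17670 ± 8702 CPM (SD, n = 8), and that of WD-TN 34775 ± 9369 CPM (SD, n = 8). Without the CD-TN mouse that stood apart the log2 fold change was 0.87 (adjusted p = 0.0081).

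The largest estimate for Scd1 was that of WSB/EiJ. Its levels were 1874, 3333 and 6828 CPM on CD-TN (lowest, median and highest of 6 mice) and 6482, 8156 and 15489 CPM on WD-TN (6 mice), so that the groups overlapped only between 6482 and 6828 CPM. The means differed by 1.26 on the log2 scale (SE 0.29, adjusted p = 0.0016). In 129S1/SvImJ the 7 mice on CD-TN reached from 3335 to 12324 CPM with a median of 10580, and the 6 on WD-TN, which all lay above them, from 12607 to 26633 CPM with a median of 17647. The log2 fold change came to 0.97 (SE 0.30, adjusted p = 0.0090). Without the lowest of those CD-TN mice, it was 0.74 and no longer passed (adjusted p = 0.055).

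Scd1 also rose in CAST/EiJ (log2 fold change 0.85, adjusted p = 0.011, but 0.066 with a separate fit per strain) and DBA/2J (0.83, adjusted p = 0.042). In A/J, with 0.94 (SE 0.33), it missed the threshold (adjusted p = 0.056), which it passed under 8 alternatives, among them edgeR (adjusted p = 0.044), DESeq2 (0.022) and a separate fit (0.0079). When all genes with any count entered the fit, Scd1 passed in none of the 7 strains, with log2 fold changes of 0.82 to 1.26 in the 5 strains called above. The 5 A/J mice on CD-TN had 19517, 13944, 15230, 14302 and 8989 CPM, and the 6 on WD-TN had 18116 to 32655 CPM with a median of 27634, so only the highest CD-TN mouse reached into the WD-TN range. In PWK/PhJ the levels were 10648, 19799 and 29396 CPM on CD-TN (6 mice) and 15721, 20971 and 23890 CPM on WD-TN (7 mice), and the WD-TN range lay inside the CD-TN range. Its log2 fold change of 0.04 (adjusted p = 0.94) had a 95% interval from -0.56 to 0.65. Set against the mean of the other 6 strains, the diet effect in PWK/PhJ was lower by 0.95 on the log2 scale (adjusted p = 0.034, where 16.3% of all genes differed in this way). Without PWK/PhJ CD replicate 3 that value was -0.85 and no longer passed (adjusted p = 0.074), and the F test over all strains did not pass with all mice (adjusted p = 0.24, where 37.5% of all genes passed). In C57BL/6J, A/J and 129S1/SvImJ the effect on none of the 9 genes was set apart from the average effect elsewhere (4.69%, 0.466% and 6.28% of all genes did).

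The order of Scd1 levels between strains changed little with diet. On CD-TN it ran PWK/PhJ, C57BL/6J, A/J, DBA/2J, 129S1/SvImJ, WSB/EiJ and CAST/EiJ, with 20179 ± 7332 CPM (SD, n = 6) at the top and 3185 ± 1656 CPM (SD, n = 7) at the bottom. Only the step from 129S1/SvImJ to WSB/EiJ passed (limma-voom adjusted p = 5.9e-05, where 39.8% of all genes differed between the pair), although the ranges of their mice overlapped. The other neighbours in the order gave adjusted p-values from 0.15 to 0.87. On WD-TN C57BL/6J stood first and PWK/PhJ between DBA/2J and 129S1/SvImJ, and the steps from 129S1/SvImJ to WSB/EiJ (adjusted p = 0.0037, 42.9% of all genes) and from WSB/EiJ to CAST/EiJ (adjusted p = 0.018, 53.4%) passed. Levels of all 9 genes differed between strains on both diets by F tests, as did 93.7% of all genes on CD-TN and 93.9% on WD-TN. For Scd1 on CD-TN this call was lost with any count as the filter (adjusted p = 0.93). Reads of every strain were mapped to the C57BL/6J genome, and unmapped reads made up 2.23% in C57BL/6J CD-TN and 10.8% in CAST/EiJ CD-TN on average. Its part in the differences between strains was not tested.

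Scd2, which is better known from brain, skin and developing tissues, rose too, although its reads were 0.0397% to 0.298% of those of Scd1 (geometric means of the 14 groups). In PWK/PhJ, where Scd1 did not pass, Scd2 had 4.96, 8.41 and 11.1 CPM on CD-TN (lowest, median and highest of 6 mice) and 14.8, 22.7 and 36.2 CPM on WD-TN (7 mice). The groups did not overlap, and the log2 fold change of 1.46 (SE 0.26, adjusted p = 6.4e-06) was the largest of Scd2 among the 7 strains. Scd2 also rose in 129S1/SvImJ (log2 fold change 1.21, adjusted p = 0.00072), CAST/EiJ (0.95, adjusted p = 0.0062) and A/J (0.91, adjusted p = 0.048), without overlap between the diets in any of them. The call in A/J was lost without any of 9 of its 11 mice taken singly, with adjusted p-values up to 0.13.

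In WSB/EiJ all 6 mice on WD-TN (7.26 to 9.19 CPM) lay above all 6 on CD-TN (5.23 to 6.72 CPM), yet the log2 fold change of 0.58 missed the threshold (adjusted p = 0.33). In C57BL/6J, with 59.0 CPM in the mouse that stood apart, it was 0.34 (adjusted p = 0.25), and without that mouse 0.66 (adjusted p = 0.0038). The F test of the diet effect over strains gave an adjusted p of 0.072 for Scd2. On CD-TN C57BL/6J, with 18.6 ± 18.2 CPM (SD, n = 8) and a median of 10.8, stood above PWK/PhJ, with a median of 8.41 CPM (log2 difference 0.76, adjusted p = 0.010, 58% of all genes). Without the mouse at 59.0 CPM the C57BL/6J mean was 12.8 ± 8.61 CPM (SD, n = 7) and the difference of 0.45 did not pass (adjusted p = 0.077). No other neighbours in the order of Scd2 levels differed (adjusted p 0.62 to 0.97), and on WD-TN none did (0.10 to 0.97). Of the 12 genes that mark leukocytes and macrophages, 12 were upregulated in 129S1/SvImJ and PWK/PhJ, 11 in C57BL/6J, 2 in A/J, 5 in WSB/EiJ, 0 in DBA/2J and 1 in CAST/EiJ. Of all genes tested, 14.5%, 15.1%, 14.3%, 4.39%, 4.97%, 10.2% and 9.77% rose in these strains, in the same order. In PWK/PhJ the change of Scd2 stood beside that of several lists of markers. The summed level of leukocyte and macrophage markers there was 25.5 to 124 CPM on CD-TN and 172 to 310 CPM on WD-TN. Cholangiocyte markers had 64.6 to 140 and 159 to 528 CPM, and stellate cell and fibroblast markers 151 to 230 and 320 to 703 CPM. Adipocyte markers had 19.3 to 26.2 and 28.8 to 78.0 CPM. Sums of endothelial and acinar pancreas markers overlapped between the diets, and those of hepatocyte markers were lower on WD-TN. The part of these cells in the Scd2 result was not tested.

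The ratio of Scd2 to Scd1 within a mouse, which does not depend on scaling between libraries, passed the test in PWK/PhJ. Scd2 reads were 0.0433% of Scd1 reads on CD-TN (geometric mean) and 0.115% on WD-TN, a log2 difference of 1.41 (two-sided exact permutation test, p = 0.00058, the smallest this design allows, adjusted over 21 ratio tests p = 0.0024). In the other 6 strains the difference lay between -0.76 and 0.23 with adjusted p-values from 0.11 to 0.96. The -0.76 of C57BL/6J was -0.21 without CD replicate 2 (exact permutation adjusted p = 0.74), and the 0.23 of 129S1/SvImJ was 0.48 without CD replicate 7 (exact permutation adjusted p = 0.11). In WSB/EiJ the difference of -0.68 passed when the labels were permuted within cohorts (exact permutation adjusted p = 0.020). Across the 93 mice, after each group's mean was removed, the correlation of Scd1 and Scd2 did not pass (Pearson r = -0.21, permutation p = 0.17, adjusted over 36 pairs p = 0.24, Spearman rho = 0.0026, permutation p = 0.98, adjusted p = 0.98). Without the 2 mice farthest from the median of Scd1, r was -0.03.

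Fads1, which adds a double bond in the making of arachidonate and eicosapentaenoate (ENSMUSG00000010663), had the lowest p of the 9 genes in the F test of diet effects between strains. In WSB/EiJ it fell from 420, 582 and 770 CPM on CD-TN (lowest, median and highest of 6 mice) to 154, 192 and 232 CPM on WD-TN (6 mice). No WD-TN mouse reached the lowest CD-TN mouse, and the mean of 192 ± 34.9 CPM (SD, n = 6) was 3.07-fold below that of 590 ± 114 CPM (SD, n = 6) on CD-TN (-1.62 on the log2 scale, SE 0.13, adjusted p = 1.4e-17). In CAST/EiJ it fell from 554, 645 and 825 CPM (7 mice) to 211, 241 and 400 CPM (8 mice), again without overlap, a log2 fold change of -1.37 (SE 0.12, adjusted p = 3.1e-16).

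In 3 further strains Fads1 fell by less. The log2 fold change was -0.50 in PWK/PhJ (adjusted p = 0.0016) and -0.48 in 129S1/SvImJ (adjusted p = 0.0020), both without overlap, and -0.37 in C57BL/6J (adjusted p = 0.012, but 0.083 with a separate fit per strain), where the groups overlapped. In DBA/2J the levels on CD-TN (586 to 753 CPM with a median of 609, 6 mice) lay within those on WD-TN (567.5 to 790 CPM with a median of 645, 7 mice), with a log2 fold change of 0.02 (SE 0.13, adjusted p = 0.94). In A/J it was -0.15 (adjusted p = 0.57). The diet effects differed between strains (F test adjusted p = 4.4e-13). Against the mean of the other 6 strains, the effect was lower by 1.14 on the log2 scale in WSB/EiJ (adjusted p = 1.0e-08, where 0.947% of all genes differed) and by 0.85 in CAST/EiJ (adjusted p = 9.2e-07, 14.5% of all genes), and higher by 0.77 in DBA/2J (adjusted p = 8.9e-05, 7.77% of all genes). On CD-TN no neighbours in the order of Fads1 levels differed (adjusted p 0.17 to 0.79), and the highest group mean was 1.67 times the lowest. On WD-TN the same ratio was 4.13, and 129S1/SvImJ, CAST/EiJ and WSB/EiJ each lay below the strain before it (adjusted p = 0.0054, 9.3e-08 and 0.00051, where 37.9%, 59.7% and 53.4% of all genes differed).

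Fads2, the desaturase that opens the same pathway, fell in CAST/EiJ and WSB/EiJ. In CAST/EiJ it had 399, 695 and 884 CPM on CD-TN (7 mice) and 230, 292 and 412 CPM on WD-TN (8 mice), which overlapped only between 399 and 412 CPM. The log2 fold change was -1.06 (SE 0.17, adjusted p = 2.1e-06). In WSB/EiJ it went from 404, 468 and 855 CPM to 177, 312 and 402 CPM (6 mice each), without overlap, a log2 fold change of -0.76 (SE 0.19, adjusted p = 0.0040, but 0.086 with any count as the filter). In the other 5 strains it lay between 0.10 and 0.29 and passed in none (adjusted p 0.33 to 0.74). The F test over strains passed (adjusted p = 5.8e-06), as did CAST/EiJ (-1.10, adjusted p = 1.7e-05) and WSB/EiJ (-0.75, adjusted p = 0.048) against the mean of the other strains. On CD-TN no neighbours in the order of Fads2 levels differed (adjusted p 0.19 to 0.84), and on WD-TN DBA/2J lay above 129S1/SvImJ (adjusted p = 0.011, 32% of all genes) and 129S1/SvImJ above WSB/EiJ (adjusted p = 0.014).

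The ratio of Fads2 to Fads1 within a mouse rose on WD-TN in all 7 strains, by 0.26 (DBA/2J) to 0.86 (WSB/EiJ) on the log2 scale. It passed in 5 strains, without overlap between the diets in each. In WSB/EiJ it went from 86.7% to 157% (two-sided exact permutation test, p = 0.0022, adjusted p = 0.0057), in PWK/PhJ from 57% to 95.4% (p = 0.00058, adjusted p = 0.0024), and in C57BL/6J from 89.5% to 133% (p = 0.00016, adjusted p = 0.0024). It also passed in 129S1/SvImJ (67.0% to 101%, exact permutation adjusted p = 0.0024) and A/J (87.4% to 110%, exact permutation adjusted p = 0.0057). In DBA/2J and CAST/EiJ the exact permutation test gave an adjusted p of 0.085 in each.

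**Figure D2:**
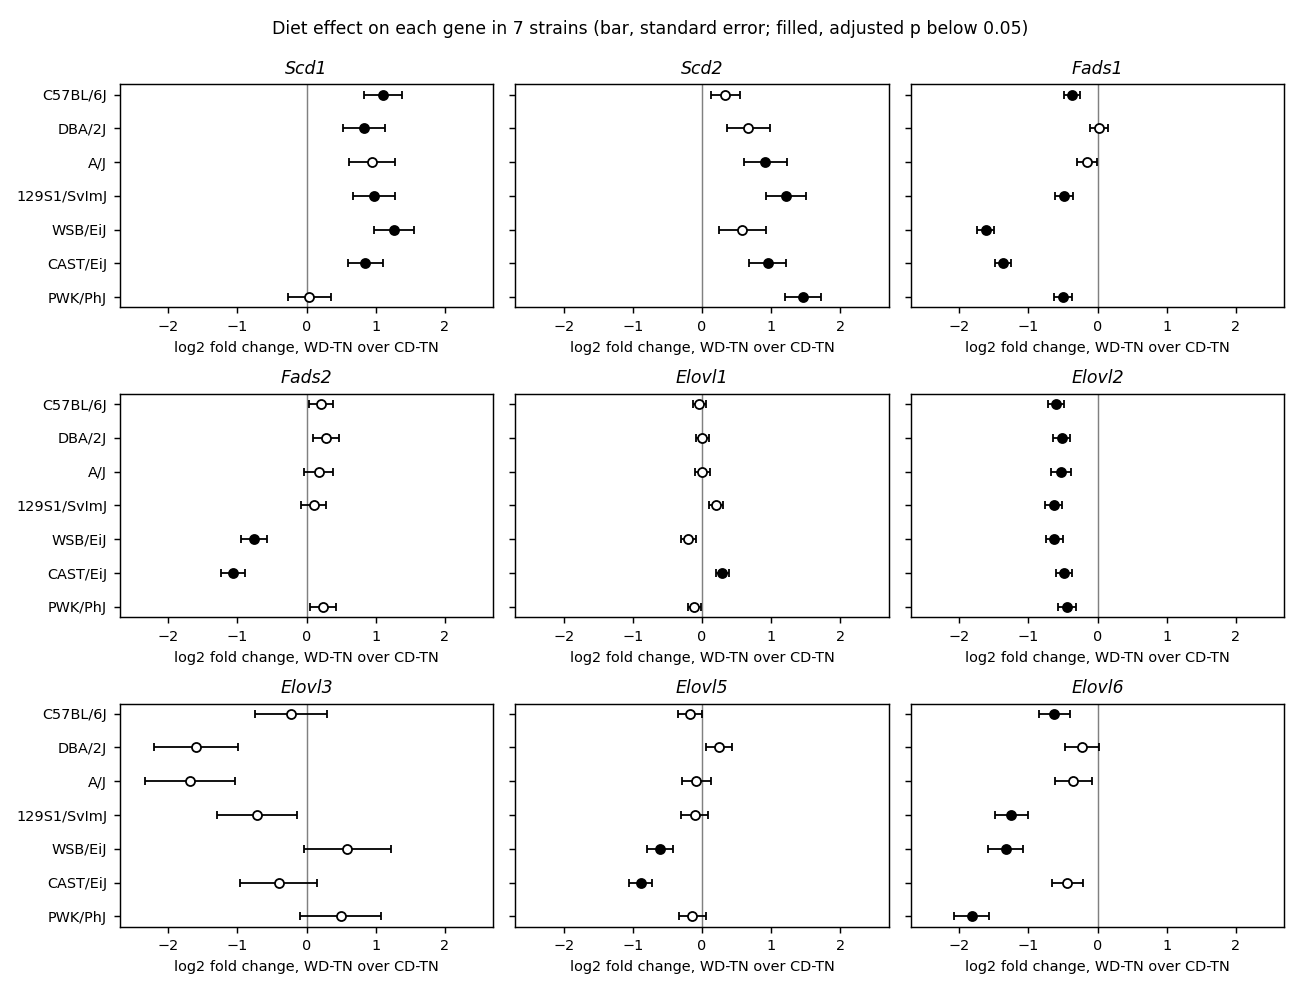
Log2 fold change of each gene, WD-TN over CD-TN, in each of the 7 strains (point, with the SE as a bar, filled where the limma-voom adjusted p is below 0.05). The 7 estimates of Elovl2 lie between -0.64 and -0.44, while those of Fads1 reach from -1.62 in WSB/EiJ to 0.02 in DBA/2J.

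Elovl5, which elongates the products of Fads2 (ENSMUSG00000032349, GRCm38 chr9:77917364-77984519, plus strand), was called in the same pair of strains as Fads2. In CAST/EiJ it fell from 485, 778 and 1470 CPM on CD-TN (7 mice) to 357, 416 and 505 CPM on WD-TN (8 mice). The groups overlapped at the lowest CD-TN mouse, and the log2 fold change was -0.89 (SE 0.17, adjusted p = 6.7e-05). In WSB/EiJ the log2 fold change was -0.61 (SE 0.19, adjusted p = 0.030). That call was lost with a separate fit per strain (adjusted p = 0.061) and with any count as the filter (0.35). In the other 5 strains it lay between -0.18 and 0.24 with adjusted p-values from 0.44 to 0.87. The effects differed between strains (F test adjusted p = 0.0065), and CAST/EiJ differed from the mean of the other 6 (-0.74, adjusted p = 0.0038). No neighbours in the order of levels differed on CD-TN (adjusted p 0.20 to 0.76), and on WD-TN C57BL/6J lay above 129S1/SvImJ (adjusted p = 0.022) and 129S1/SvImJ above WSB/EiJ (adjusted p = 0.00059). The share of reads that did not map was 10.8% ± 1.66 (SD, n = 7) on CD-TN and 13.3% ± 1.01 (SD, n = 8) on WD-TN in CAST/EiJ, and 4.52% ± 1.61 (SD, n = 6) and 7.42% ± 2.52 (SD, n = 6) in WSB/EiJ. In PWK/PhJ the share was 3.50% ± 0.708 (SD, n = 6) on CD-TN and 7.88% ± 1.18 (SD, n = 7) on WD-TN, where neither Fads2 nor Elovl5 was called. It was higher on WD-TN in 129S1/SvImJ and C57BL/6J too (5.57% against 4.55% and 2.82% against 2.23%) and lower in DBA/2J (4.77% against 6.45%) and A/J (2.11% against 2.25%). Its part in the falls of Fads2 and Elovl5 was not tested.

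Promoters of Fads2 and Elovl5, the pair called in CAST/EiJ and WSB/EiJ and in no other strain, are shown with the motifs of regulators of lipid genes in capitals. They are the 250 bases before the RefSeq start of each gene on GRCm38, 5 of the 9 genes having an entry (Fads2, Elovl1, Elovl2, Elovl5 and Elovl6). GRCm38 is the C57BL/6J sequence, a strain in which neither gene was called. Sequences of CAST/EiJ and WSB/EiJ were not examined. The motifs searched on both strands were TCACNCCAC (a sterol regulatory element, held by 1.05% of all 32851 promoters), CCAAT (33.8%), CACGTG (an E-box, 6.02%) and GGGCGG (32.7%). Fads2 is at chr19:10101504-10101753 on the minus strand and Elovl5 at chr9:77917115-77917364 on the plus strand. The GENCODE gene of Fads2 starts further upstream, at 10101746, so most of its window lies inside the annotated gene.
Fads2: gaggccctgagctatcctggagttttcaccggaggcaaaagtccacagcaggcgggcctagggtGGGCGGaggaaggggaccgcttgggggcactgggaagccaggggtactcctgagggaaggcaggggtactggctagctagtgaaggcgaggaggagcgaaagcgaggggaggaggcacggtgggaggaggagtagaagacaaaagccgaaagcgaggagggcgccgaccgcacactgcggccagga
Elovl5: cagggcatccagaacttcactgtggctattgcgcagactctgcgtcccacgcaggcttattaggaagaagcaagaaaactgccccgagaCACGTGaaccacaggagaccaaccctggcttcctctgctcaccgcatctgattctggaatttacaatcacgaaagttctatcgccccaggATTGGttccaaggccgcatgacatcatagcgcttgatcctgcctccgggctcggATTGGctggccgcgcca
Fads2 held 1 GGGCGG, and Elovl5 held 1 CACGTG and 2 CCAAT (written on the other strand as ATTGG). TCACNCCAC was in the window of none of the 5 genes.

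Elovl2, which elongates the long polyunsaturated chains on the way to docosahexaenoate (ENSMUSG00000021364, chr13:41182381-41220405, minus strand), fell in all 7 strains. The log2 fold change ran from -0.44 in PWK/PhJ (adjusted p = 0.0067) to -0.64 in 129S1/SvImJ (adjusted p = 5.0e-05), with the call in WSB/EiJ lost when any count was the filter (adjusted p = 0.14). The mean over strains was -0.55 (SE 0.05, adjusted p = 7.8e-17, where 27.1% of all genes rose and 24.5% fell). The F test of the effects gave an adjusted p of 0.93. In PWK/PhJ the levels were 1026, 1138 and 1340 CPM on CD-TN (6 mice) and 705, 887 and 973 CPM on WD-TN (7 mice), which did not overlap, and in 129S1/SvImJ 595, 630 and 781 CPM (7 mice) and 349, 426 and 530 CPM (6 mice), which did not overlap either.

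The 5 A/J mice on CD-TN had 1487, 1380, 1127, 1232 and 1147 CPM of Elovl2, all above the 662 to 1049 CPM of the 6 on WD-TN. With overlap, the C57BL/6J mean of 1172 ± 297 CPM (SD, n = 8) was followed on WD-TN by 748 ± 71.9 CPM (SD, n = 8), and the WSB/EiJ mean of 450 ± 71.4 CPM (SD, n = 6) by 289 ± 24.5 CPM (SD, n = 6). The ranges also overlapped in DBA/2J (log2 fold change -0.52, adjusted p = 0.0018) and CAST/EiJ (-0.49, adjusted p = 0.0012). The order of strains on CD-TN ran A/J, C57BL/6J, PWK/PhJ, DBA/2J, CAST/EiJ, 129S1/SvImJ and WSB/EiJ. The steps that passed were those from DBA/2J to CAST/EiJ (adjusted p = 0.0098, 58.8% of all genes) and from 129S1/SvImJ to WSB/EiJ (adjusted p = 7.4e-05). On WD-TN DBA/2J stood above CAST/EiJ, CAST/EiJ above 129S1/SvImJ and 129S1/SvImJ above WSB/EiJ (adjusted p = 0.010, 0.0047 and 0.00012).

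Elovl6, the elongase of palmitate (ENSMUSG00000041220, chr3:129532355-129638495, plus strand), had its largest fall in PWK/PhJ, where Scd1 did not pass the test. PWK/PhJ mice on CD-TN had 208, 338 and 1236 CPM (lowest, median and highest of 6) and on WD-TN 105, 125 and 143 CPM (7 mice). Every WD-TN mouse lay below every CD-TN mouse, and the log2 fold change was -1.82 (SE 0.25, adjusted p = 1.7e-08). Without the mouse at 1236 CPM it was -1.52 (adjusted p = 9.2e-07). In WSB/EiJ it fell from 117, 151 and 305 CPM to 47.1, 61.3 and 87.0 CPM (6 mice each, log2 fold change -1.33, adjusted p = 7.6e-05), and in 129S1/SvImJ from 90.3, 142 and 178 CPM (7 mice) to 49.4, 53.8 and 66.5 CPM (6 mice, log2 fold change -1.24, adjusted p = 3.7e-05), both without overlap.

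In C57BL/6J Elovl6 fell by 0.63 on the log2 scale (adjusted p = 0.028) with overlap, a call lost with a separate fit per strain (adjusted p = 0.061) and with any count as the filter (0.090). It did not pass in CAST/EiJ (-0.44, adjusted p = 0.16), A/J (-0.35, adjusted p = 0.46) or DBA/2J (-0.22, adjusted p = 0.60). The effects differed between strains (F test adjusted p = 0.00050), and PWK/PhJ differed from the mean of the other 6 (-1.12, adjusted p = 0.0022, and -0.82, adjusted p = 0.023, without the mouse at 1236 CPM). PWK/PhJ also had the highest mean on CD-TN, above C57BL/6J (adjusted p = 0.0011, and 0.025 without that mouse). C57BL/6J lay above WSB/EiJ only without C57BL/6J CD replicate 2 (adjusted p = 0.0092, and 0.054 with it), and 129S1/SvImJ lay above CAST/EiJ (adjusted p = 0.022, 58.5% of all genes). On WD-TN PWK/PhJ stood between A/J and DBA/2J without a difference that passed (adjusted p = 0.97 and 0.61), and DBA/2J lay above CAST/EiJ (adjusted p = 0.0011, 59.7% of all genes).

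The ratio of Elovl6 to Elovl5 within a mouse fell with Elovl6. It went from 29.6% to 9.23% in PWK/PhJ (log2 difference -1.68, two-sided exact permutation test, p = 0.00058, adjusted p = 0.0024) and from 15.3% to 6.96% in 129S1/SvImJ (-1.14, exact permutation p = 0.0012, adjusted p = 0.0041), without overlap in both. In C57BL/6J the ratio fell from 18.1% to 13.3% (exact permutation adjusted p = 0.023). The other 4 strains did not pass, with DBA/2J at -0.47 (exact permutation adjusted p = 0.11, and 0.044 when permuted within cohorts), WSB/EiJ at -0.72 (exact permutation adjusted p = 0.077) and CAST/EiJ, where Elovl5 fell more than Elovl6, at 0.45 (exact permutation adjusted p = 0.085).

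**Figure D3:**
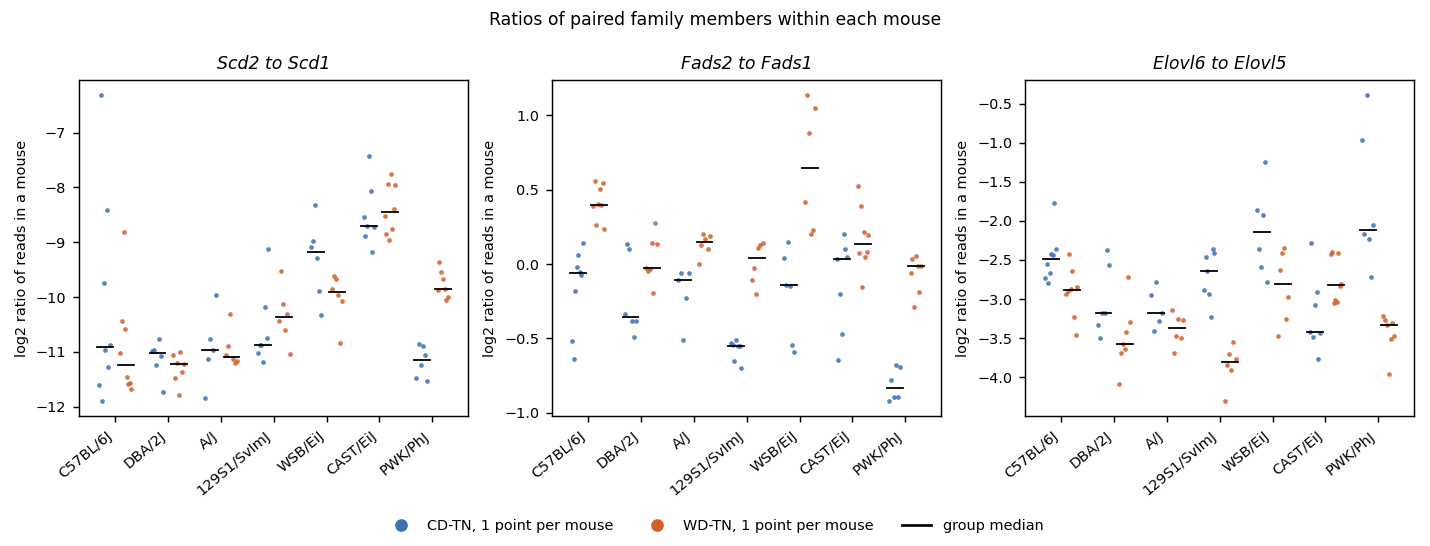
Log2 ratio of reads within each mouse for Scd2 to Scd1, Fads2 to Fads1 and Elovl6 to Elovl5, by strain, with CD-TN in blue, WD-TN in orange and a bar at the group median. Fads2 to Fads1 is higher on WD-TN in all 7 strains, while Scd2 to Scd1 separates the diets in PWK/PhJ, where its log2 difference is 1.41.

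Elovl1 (ENSMUSG00000006390, chr4:118428093-118432953, plus strand) and Elovl3 (ENSMUSG00000038754, chr19:46131897-46135694, plus strand), which make saturated and monounsaturated very long chains, gave few calls. Elovl1 rose in CAST/EiJ, from 28.5, 38.1 and 55.2 CPM (7 mice) to 35.6, 51.0 and 56.6 CPM (8 mice), with overlap, a log2 fold change of 0.30 (SE 0.09, adjusted p = 0.017). With cohort as a covariate it was 0.20 (adjusted p = 0.083), and the call was also lost with a separate fit per strain (adjusted p = 0.19) and with any count as the filter (0.051). Its effects differed between strains (F test adjusted p = 0.028), and CAST/EiJ differed from the mean of the other 6 (0.32, adjusted p = 0.0245). In the other 6 strains the log2 fold change lay between -0.20 and 0.20 and did not pass. No neighbours in the order of strains differed on either diet (adjusted p 0.060 to 0.98).

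Elovl3 was the most variable of the 9 genes between mice of a group, with a median coefficient of variation over the 14 groups of 44.3% against 9.74% for Elovl1. In DBA/2J all 7 mice on WD-TN (95.0 to 223 CPM, median 159) lay below all 6 on CD-TN (366 to 758 CPM, median 431), and the log2 fold change of -1.60 (SE 0.61) had an adjusted p of 0.055. In A/J, with 90.9, 126, 44.1, 35.7 and 68.5 CPM on CD-TN and 10.6 to 37.1 CPM on WD-TN, it was -1.68 (adjusted p = 0.088). Both passed with edgeR (adjusted p = 0.0097 and 0.022) and DESeq2 (0.0059 and 0.012). In WSB/EiJ and PWK/PhJ the log2 fold change was 0.59 and 0.50 (adjusted p = 0.66 and 0.57), and without the mouse at 9.16 CPM the estimate in PWK/PhJ was -0.20 (adjusted p = 0.84). With all mice the F test over strains gave an adjusted p of 0.10, and without C57BL/6J CD replicate 2 it passed (adjusted p = 0.0047). In C57BL/6J it was -0.22 (adjusted p = 0.81), and without the mouse at 1.55 CPM -1.08 (adjusted p = 0.034). WSB/EiJ had the highest mean on WD-TN and A/J the lowest, 19.6 times apart, and A/J lay below 129S1/SvImJ, its neighbour in the order (adjusted p = 0.0095, 26.9% of all genes). On CD-TN WSB/EiJ lay above C57BL/6J by 1.42 on the log2 scale (adjusted p = 0.032, 53.8% of all genes), and without the mouse at 1.55 CPM by 0.56, which did not pass (adjusted p = 0.29).

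Averaged over the 7 strains, Scd1 (log2 fold change 0.86, adjusted p = 4.0e-10, but 0.55 with any count as the filter) and Scd2 (0.87, adjusted p = 9.6e-11) rose. Elovl6 (-0.86, adjusted p = 4.2e-13), Fads1 (-0.64, adjusted p = 3.2e-20), Elovl2 (-0.55) and Elovl5 (-0.25, adjusted p = 0.0023) fell. Fads2 (-0.12, adjusted p = 0.16), Elovl1 (0.02, adjusted p = 0.64) and Elovl3 (-0.51, adjusted p = 0.051) did not pass. The mean for Elovl3 passed with edgeR (-0.70, adjusted p = 0.00044), DESeq2 (-0.70, adjusted p = 0.00020) and sample quality weights (-0.67, adjusted p = 0.00024). It also passed without C57BL/6J CD replicate 2 (-0.63, adjusted p = 0.00076), PWK/PhJ CD replicate 3 (adjusted p = 0.011), 129S1/SvImJ CD replicate 7 (adjusted p = 0.030) or any of 4 A/J mice taken singly (adjusted p 0.041 to 0.046).

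Levels of several enzymes also varied together between mice of the same strain and diet. Over the 93 mice, after each group's mean was removed, 18 of 36 pairs of genes were positively and 3 negatively correlated at an adjusted p below 0.05 (Pearson, 100000 permutations within groups). By Spearman rho, 16 of the 36 pairs passed. The closest pair was Fads1 and Fads2, with Pearson r = 0.78 (permutation p = 1e-05, the smallest these permutations can give, adjusted p = 3.6e-05) and Spearman rho = 0.73 (permutation p = 1e-05, adjusted p = 4.5e-05). Without the 2 mice farthest from the median of Fads1, r was 0.75. Scd1 and Elovl5 had r = 0.62 (permutation p = 1e-05, adjusted p = 3.6e-05) and rho = 0.53 (permutation p = 1e-05, adjusted p = 4.5e-05), with r = 0.51 without the 2 farthest mice.

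Scd1 and Elovl6, whose diet effects had opposite signs, were positively correlated between mice of a group. Pearson r was 0.61 (permutation p = 1e-05, adjusted p = 3.6e-05) and Spearman rho 0.62 (permutation p = 1e-05, adjusted p = 4.5e-05), with r = 0.56 without the 2 farthest mice, and r was 0.70 among the mice on CD-TN and 0.38 among those on WD-TN. Scd2 ran against Elovl3, with r = -0.65 (permutation p = 1e-05, adjusted p = 3.6e-05), rho = -0.43 (permutation p = 0.00014, adjusted p = 0.00046) and r = -0.49 without the 2 farthest mice. With C57BL/6J CD replicate 2 left out, Scd2 and Elovl3 had r = -0.45, but 6 of the 21 correlated pairs no longer passed. These were Scd1 with Elovl2 (r = 0.18) and Elovl3 (0.13), Scd2 with Elovl5 (-0.15), Fads2 with Elovl6 (0.18), and Elovl2 with Elovl3 (0.12) and Elovl6 (0.15). The points of a correlation share a library and its scaling.

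**Figure D4:**
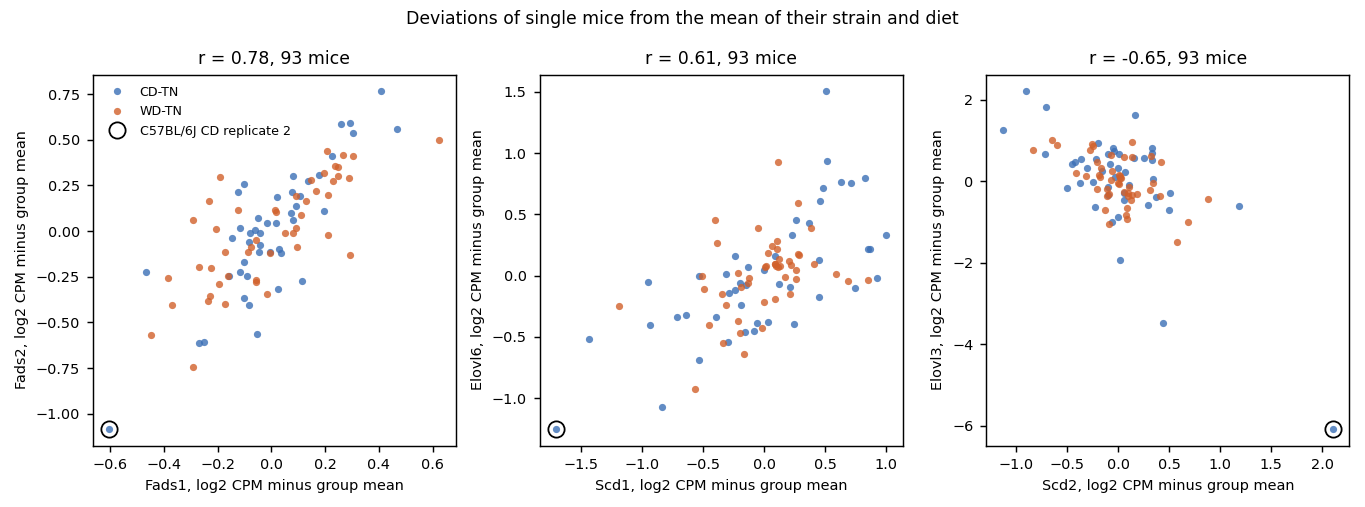
Deviation of each of the 93 mice from the mean log2 CPM of its strain and diet, for Fads1 and Fads2 (r = 0.78), Scd1 and Elovl6 (r = 0.61) and Scd2 and Elovl3 (r = -0.65), with CD-TN in blue and WD-TN in orange. The ringed mouse, C57BL/6J CD replicate 2, lies at the edge of all 3 panels.

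The genes whose 14 group means were most like those of each enzyme (Pearson r of mean log2 CPM, among the 11148 genes whose log2 CPM averaged 1 or more) included other enzymes of the set. For Fads1 they included Elovl5 (0.90) and Acsl5 (0.89). For Fads2 they were Elovl5 (0.87), Pctp (0.85) and Cbarp (0.84), and for Elovl5 Arap2 (0.93), Chrna4 (0.91) and Pctp (0.91). For Elovl6 they were Hmgcs1 (0.89), Acsl5 (0.89) and Fdft1 (0.89), and for Elovl2 Gramd4 (0.88), Asic1 (0.86) and Pnpla3 (0.86). Scd1 was most like Ifi27l2b (0.95), Unc93b1 (0.94) and Mapk3 (0.93), and Scd2 most like Ddr1 (0.92), Incenp (0.89) and Pkhd1 (0.89). Elovl3 was most like Serpina3k (0.92), Insig2 (0.90) and Serpina4-ps1 (0.89), and Elovl1 most like Dusp12 (0.85), Cacybp (0.82) and Fam241a (0.82). These are descriptions over 14 means that share strains.

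Genes around these enzymes were counted in lists, all to be read beside the shares of all genes tested. In the order C57BL/6J, DBA/2J, A/J, 129S1/SvImJ, WSB/EiJ, CAST/EiJ and PWK/PhJ, 14.3%, 10.2%, 4.39%, 14.5%, 4.97%, 9.77% and 15.1% rose. In the same order, 11.9%, 7.77%, 4.64%, 13.6%, 3.97%, 9.73% and 14.5% fell. In lists this short, a count of 1 gene can lie near these shares. Among 13 genes of fatty acid synthesis, 9 fell in PWK/PhJ, 8 in C57BL/6J and in WSB/EiJ, 7 in 129S1/SvImJ, 6 in CAST/EiJ (where 1 rose), 2 in DBA/2J and 1 in A/J. Their median log2 fold change ran from -1.01 in WSB/EiJ to -0.32 in A/J. Acly, which supplies cytosolic acetyl-CoA, fell in 6 strains (log2 fold change -1.75 to -0.43), and Me1, a source of NADPH, and Slc25a1, the citrate carrier, fell in 5 each.

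Of the 12 genes of cholesterol synthesis and uptake, 5 or more fell in every strain. All 12 fell in C57BL/6J, 129S1/SvImJ, WSB/EiJ and PWK/PhJ, 11 in CAST/EiJ, 8 in A/J and 5 in DBA/2J, with medians from -1.84 in C57BL/6J to -0.58 in DBA/2J. Idi1 and Sqle fell in all 7 strains, with Idi1 between -4.10 and -1.39. Among 5 targets of the liver X receptors, 4 rose in C57BL/6J, CAST/EiJ and PWK/PhJ, 3 in A/J and WSB/EiJ, and 1 in DBA/2J and 129S1/SvImJ, and none fell. Abcg5, part of the sterol exporter, and Abcg1 rose in 6 strains each and Abcg8 in 4.

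Of 13 regulators, 7 fell in PWK/PhJ (14.5% of all genes), 5 in DBA/2J (7.77%) and 129S1/SvImJ (13.6%), and 4 in C57BL/6J (11.9%) and A/J (4.64%). In CAST/EiJ 3 fell (9.73%) and in WSB/EiJ 2 (3.97%), and at most 2 rose in a strain. Srebf1, which encodes SREBP-1, rose in 5 strains, by up to 1.18 in C57BL/6J, and fell in 129S1/SvImJ (-0.69, adjusted p = 0.019). In WSB/EiJ it was 0.55 (adjusted p = 0.13). Srebf2 (-0.82 to -0.36) and Insig1 (-1.51 to -0.61), which retains SREBPs in the endoplasmic reticulum, fell in all 7. Insig2 fell in DBA/2J (-0.71, adjusted p = 0.011) and A/J (-0.70, adjusted p = 0.034), the strains with the most negative estimates of Elovl3. Elovl3 did not pass in either strain, and a link between Insig2 and Elovl3 was not tested. Nr1h3, which encodes a liver X receptor, fell in PWK/PhJ by 0.15, and Ppara, the fatty acid sensor, rose in C57BL/6J (0.57) and PWK/PhJ (0.62).

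**Figure D5:**
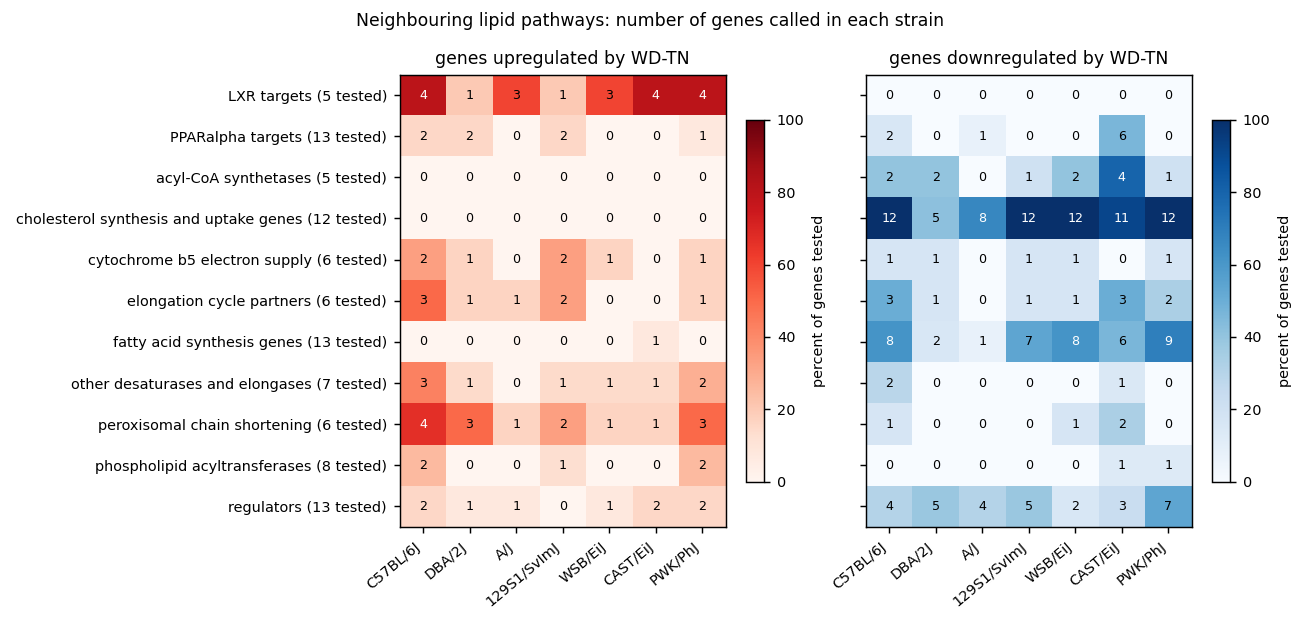
Number of genes upregulated (left) and downregulated (right) by WD-TN in each of 11 lists and 7 strains, with the share of the genes tested as the shade. The list of cholesterol synthesis and uptake has 5 to 12 of 12 genes downregulated, and that of liver X receptor targets 1 to 4 of 5 upregulated.

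Of 7 other desaturases and elongases tested, 3 rose and 2 fell in C57BL/6J (14.3% and 11.9% of all genes). In the other strains at most 2 rose and 1 fell. Scd3 rose in C57BL/6J, DBA/2J and WSB/EiJ, with a log2 fold change of 2.33 in WSB/EiJ (adjusted p = 0.0018) between means of 0.121 CPM on CD-TN and 0.531 CPM on WD-TN, and Elovl7 and Degs2 rose in 2 strains each. Elovl4 had at most 14 reads in a mouse and was not tested. Scd3 shares 91.5% of its aligned coding bases with Scd1, so a part of its reads could come from Scd1. Of the 6 partners of the elongation cycle, up to 3 rose and 3 fell in a strain (both in C57BL/6J). Tecr, which catalyses the last reduction, fell in 6 strains (-0.76 to -0.17), and Hacd4 and Hacd1 rose in 3 each. Of 6 genes of cytochrome b5 electron supply, at most 2 rose and 1 fell in a strain. Cyb5r4 rose in 4 strains by at most 0.23, Cyb5a rose in 3 and Cyb5r1 fell in 2. Of the 5 acyl-CoA synthetases, 4 fell in CAST/EiJ, 2 in C57BL/6J, DBA/2J and WSB/EiJ, 1 in 129S1/SvImJ and PWK/PhJ and 0 in A/J. Acsl3 fell in 5 strains, Acsl5 in 4 and Acsl6 in 1, and none rose in any.

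Of 6 genes of peroxisomal chain shortening, the step that completes docosahexaenoate, 4 rose in C57BL/6J, 3 in DBA/2J and PWK/PhJ, 2 in 129S1/SvImJ and 1 in the other strains, and at most 2 fell. Acaa1a rose in 4 and Abcd2 fell in 3. Of 8 phospholipid acyltransferases, at most 2 rose and 1 fell in a strain. Lpcat2 rose in 3 strains and Lpcat1 in 2, while Lpcat3, which puts polyunsaturated chains into phospholipids, fell in 1. Of 13 targets of PPAR-alpha, 6 fell in CAST/EiJ (9.73% of all genes), 2 in C57BL/6J (11.9%) and 1 in A/J (4.64%). At most 2 of them rose in a strain. Vnn1 rose in 4 strains, Fgf21 fell in 3 and Acaa1b rose in 3.

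The libraries carried the markers of liver, with a summed level of 7 hepatocyte markers of 57768 to 209748 CPM in every mouse. The median of that sum was lower on WD-TN than on CD-TN in all 7 strains, from 119441 to 72439 CPM in PWK/PhJ for example. The counts of those markers that fell were 4 of 7 in C57BL/6J, A/J, 129S1/SvImJ and PWK/PhJ, 3 in WSB/EiJ, 2 in DBA/2J (where 1 rose) and 1 in CAST/EiJ. Upregulated stellate cell and fibroblast markers numbered 5 of 10 in C57BL/6J and PWK/PhJ, 4 in 129S1/SvImJ, 2 in A/J and 0 in the other strains. Cholangiocyte markers rose 5 of 6 in PWK/PhJ and 1 of 6 in C57BL/6J, 129S1/SvImJ and CAST/EiJ, while 1 fell in DBA/2J, and of 8 endothelial markers at most 2 rose and 3 fell in a strain. Of 4 adipocyte markers tested, 2 rose in C57BL/6J and 1 in 129S1/SvImJ and PWK/PhJ, and 1 fell in CAST/EiJ. The shares of all genes given with the gene lists hold beside these marker counts too, and several counts lie near them. Among these is the 1 of 6 cholangiocyte markers in C57BL/6J, 129S1/SvImJ and CAST/EiJ, where 14.3%, 14.5% and 9.77% of all genes rose. No acinar pancreas marker was called, although their summed level reached 1254 CPM in a CAST/EiJ mouse on WD-TN against a group median of 2.17 CPM. The part of these cells in the changes of the 9 enzymes was not tested.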

How the data were processed

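Liver RNA of 93 mice was measured by RNA-seq. The authors sequenced SMARTER mRNA libraries on a BGISEQ-500, mapped the reads to the C57BL/6J genome with STAR (2.7.1a in the submitters' processing notes, which also name GRCm38 and mm10) and deposited raw counts per Ensembl gene, with no normalization. The annotation release and the strand setting are not given in the sources used here. The 4 summary lines of the table were kept out of library sizes. Between 40020424 and 49894856 reads per mouse fell on genes (median 46618609), so counting error is small for all 9 genes except in the lowest libraries of Scd2 (204 reads) and Elovl3 (92 reads).

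Counts were fitted in R 4.3.3 with limma 3.58.1 (voom, eBayes) and edgeR 4.0.16 (TMM factors, 0.81 to 1.27, and filterByExpr with a minimum count of 10), with 1 coefficient for every combination of strain and diet (14 groups). Contrasts were WD-TN minus CD-TN per strain, each strain against the mean of the other 6, F tests over strains and all pairs of strains on a diet. P-values were adjusted by Benjamini-Hochberg over all 19110 genes within a contrast, with a threshold of 0.05. All adjusted p-values of genes come from this fit unless another tool is named. Within-mouse ratios used a pseudocount of 0.5 reads and exact permutations of the diet labels within a strain. Correlations used log2 CPM with a prior count of 2. Groups came from the labels, which give no replicate or cage numbers. The authors housed several mice per cage, so p-values rest on the spread between mice that may share a cage.

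The 9 genes, the gene lists and the tests were chosen with earlier results of these data known. Named genes were all 9, the 3 genes most like each in group means, up to 3 genes per list called in the most strains, and Srebf1, Srebf2, Nr1h3, Ppara, Insig1 and Insig2. Some genes that this rule names are not reported here. The hepatocyte marker Tf was not matched, and 2 of the adipocyte markers were too low to test. Exon lengths and coding sequences came from GENCODE vM21 and promoters from RefSeq. The steps were tested on simulated data. Alternatives were edgeR's quasi-likelihood test, DESeq2 1.42.0, upper-quartile factors, other filters, cohort or the RNA integrity number (RIN) added as covariates, sample quality weights, a separate fit per strain and each A/J mouse left out. Leaving out 3 mice that stood apart and averaging the effect over strains were added after seeing the data.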

Additional observations from a re-analysis of the deposited data

Results flagged for a closer look

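Of 126 combinations of gene and group, 14 had a mouse whose gap to its nearest neighbour was large for the range of its group (Dixon's ratio). For normally distributed values chance alone flags about 1 in 20. The ratio was taken on untransformed CPM, with 9 flags high and 5 low, so the 14 cannot be set against that rate. In 129S1/SvImJ CD-TN the same mouse (replicate 7) was lowest in Scd1 (3335 CPM), Elovl3 (35.3 CPM) and Elovl5 (481 CPM). C57BL/6J CD replicate 2 was highest in Scd2 (59.0 CPM). In WSB/EiJ, CD-TN mice were apart in Fads2 (855 CPM), Elovl2 (316 CPM, the lowest), Elovl5 (1085 CPM) and Elovl6 (305 CPM), each a different mouse, and a WD-TN mouse in Scd1 (15489 CPM). In DBA/2J the mice were apart in Fads1 (753 CPM on CD-TN), Elovl3 (758 CPM on CD-TN) and Elovl6 (212 CPM on WD-TN). Elovl6 was also high in a 129S1/SvImJ mouse on WD-TN (66.5 CPM) and low in an A/J mouse on WD-TN (64.4 CPM).

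The diet effect differed between the 7 strains by limma-voom F tests for Fads1 (adjusted p = 4.4e-13), Fads2 (5.8e-06), Elovl6 (0.00050), Elovl5 (0.0065) and Elovl1 (0.028). Against the mean of the other 6 strains on the log2 scale, the effect in WSB/EiJ differed by -1.14 for Fads1 and -0.75 for Fads2, and in CAST/EiJ by -0.85 for Fads1, -1.10 for Fads2, -0.74 for Elovl5 and 0.32 for Elovl1. In PWK/PhJ it differed by -0.95 for Scd1 (-0.85 and no longer past the threshold without CD replicate 3) and -1.12 for Elovl6, and in DBA/2J by 0.77 for Fads1.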

How the results depend on the processing

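No called fold change of the 9 genes changed sign under any alternative run, and the F tests kept the calls of Fads1, Fads2, Elovl1, Elovl5 and Elovl6 throughout. The number of genes called moved by more than 1.5 times in some strains. With any count above 0 as the filter it fell to 2 in C57BL/6J and WSB/EiJ and to 1 in A/J, and Scd1 no longer passed in any strain (adjusted p up to 0.98), in the mean over strains (0.55) or in the F test of levels on CD-TN (0.93). Elovl6 in C57BL/6J, Elovl1 in CAST/EiJ, Scd2 in A/J and Fads2, Elovl2 and Elovl5 in WSB/EiJ lost their calls too, and Elovl3 in DBA/2J gained one (0.019). With a separate fit per strain C57BL/6J had 2 (Fads1 and Elovl6 lost) and DBA/2J and A/J had 4 each. Scd1 and Elovl1 lost their calls in CAST/EiJ, and in WSB/EiJ Scd2 gained one (0.0015) while Elovl5 lost its own, and Elovl1 in 129S1/SvImJ gained one (0.045). With sample quality weights DBA/2J and A/J again had 4, and with edgeR and DESeq2 A/J had 4. In A/J it was 1 with cohort or RIN as a covariate, and between 1 and 2 with single mice left out. When permuted within cohorts, the Scd2 to Scd1 ratio passed in 2 strains, WSB/EiJ added, and the Elovl6 to Elovl5 ratio also in DBA/2J (0.044). Scd2 also passed the F test with edgeR (adjusted p = 0.013), DESeq2 (0.0063), sample quality weights (0.037) and cohort as a covariate (0.027). Elovl3 passed it with edgeR (0.040), DESeq2 (0.026), sample quality weights (0.014) and without C57BL/6J CD replicate 2 (0.0047). The causes were not tested. With deviations taken within cohorts, 5 of the 21 correlated pairs no longer passed. No paired analysis was possible because the columns carry no replicate numbers that the groups share, and cohort served as the covariate in its place. Depth was not varied, and the libraries with the fewest reads held 92 on Elovl3 and 204 on Scd2.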
